A study of Mus musculus with 22 samples.

Results

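The 9 genes described here encode interleukin-10 (Il10), the chains of its receptor (Il10ra and Il10rb), the chains of interleukin-35 (Ebi3 and Il12a), receptor chains of the IL-12 and IL-6 families (Il27ra and Il6st), and the secreted proteins FGL2 (Fgl2) and galectin-1 (Lgals1). They are 9 of the 55011 genes in the count table, and were chosen by name as mediators that regulatory T cells (Treg) use, or respond to, when they restrain other cells. The set was also selected on Il10, which had been seen to be low in WT Treg and higher in both vector groups, so the contrasts of Il10 with WT Treg are given as a description without a test. All 9 passed the filter on low counts, as did 15462 genes of the table, although Il12a did so through F1, N3 and E2, the last with 2 counts, and is described without a test.

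The cells came from an adoptive transfer into scurfy mice, a C57BL/6 line without functional Foxp3 that develops fatal autoimmunity. In the FOXP3 group, the transferred cells were scurfy CD4+ T cells that had been taken from lymph nodes of mice aged 10 days and given a lentiviral vector with human FOXP3 and the surface reporter LNGFR, which is a shortened form of the low-affinity receptor for nerve growth factor. In the WT Treg group, CD4+CD25+ cells with the CD45.1 allele were transferred. Their donors' age is not given in the labels, and their tag for genotype names scurfy as in the other groups. In the LNGFR group, scurfy CD4+ T cells carried an empty vector with the reporter alone. Recipients in all groups were scurfy mice treated at 10 days of age with cyclophosphamide at 50 mg/kg, injected with cells on day 14 and given human IL-2 (1000 IU/g) each day for 5 days and each week after that. Lymph nodes were taken at day 50, and 1000 CD4+ T cells per library were sorted in 2 rounds by LNGFR or CD45.1, since scurfy recipients are not genetically T-cell deficient and hold their own cells too. Titles hold codes, each shared by 2 libraries that were summed here as 1 replicate: F1, F2, F5, N2 and N3 in the FOXP3 group, E2, G4 and L1 in WT Treg, and G1, G2 and G3 in LNGFR. What a code stands for, a mouse or something else, is not given in the labels, and p-values here reflect variation among codes only, part of which may be technical. WT Treg differ from both vector groups in donor, CD45.1 allele, sort marker and vector as well as in cell type, and these cannot be told apart. Nor can the FOXP3 vector and whatever the letters of the codes stand for, since no letter occurs in both vector groups.

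IL-10 is a cytokine that T cells, B cells and myeloid cells release, and that limits inflammation through a receptor of a ligand-binding chain (IL-10Rα) and a shared signalling chain (IL-10Rβ), which activate JAK1, TYK2 and STAT3. IL-35 pairs EBI3 with the p35 chain encoded by Il12a, and each chain has other partners: EBI3 forms IL-27 with the product of Il27, and p35 forms IL-12 with that of Il12b. IL-27 is read by IL-27Rα with gp130, the product of Il6st, which also transmits IL-6, LIF, oncostatin M and IL-11. FGL2 is a secreted protein that Treg release and that acts on inhibitory Fc receptors, and galectin-1 is a lectin that binds sugars on activated T cells.

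Library depth was uneven. Of the 22 libraries, 19 held 2204508 to 5453375 counts, and 3 (both of E2 and the second of G1) held 332570 to 641980, with 23.5% to 46.1% of counts on the repeat-derived gene model Gm10800, against 1.72% to 3.53% in the others. The 10 CD4 T-cell markers examined were found in every code (summed 3231 to 8085 CPM, counts scaled to 1000000 per TMM-scaled library), and the 10 B-cell markers were summed to 5538 CPM in FOXP3 code N3, 1693 CPM in LNGFR code G1 and 146 to 627 CPM elsewhere. Foxp3 was read through the mouse gene, at 162 to 313 CPM in the FOXP3 codes, 704 to 1630 CPM in WT Treg and 42.7 to 143 CPM in LNGFR. The scurfy mutation is a frameshift that leaves a transcript, so this gene does not check the genotype. The human transgene was not analysed. Results that rest on E2, G1 or N3 are therefore also given without these codes, which leaves 4 FOXP3, 2 WT Treg and 2 LNGFR codes.

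**Figure D1:**
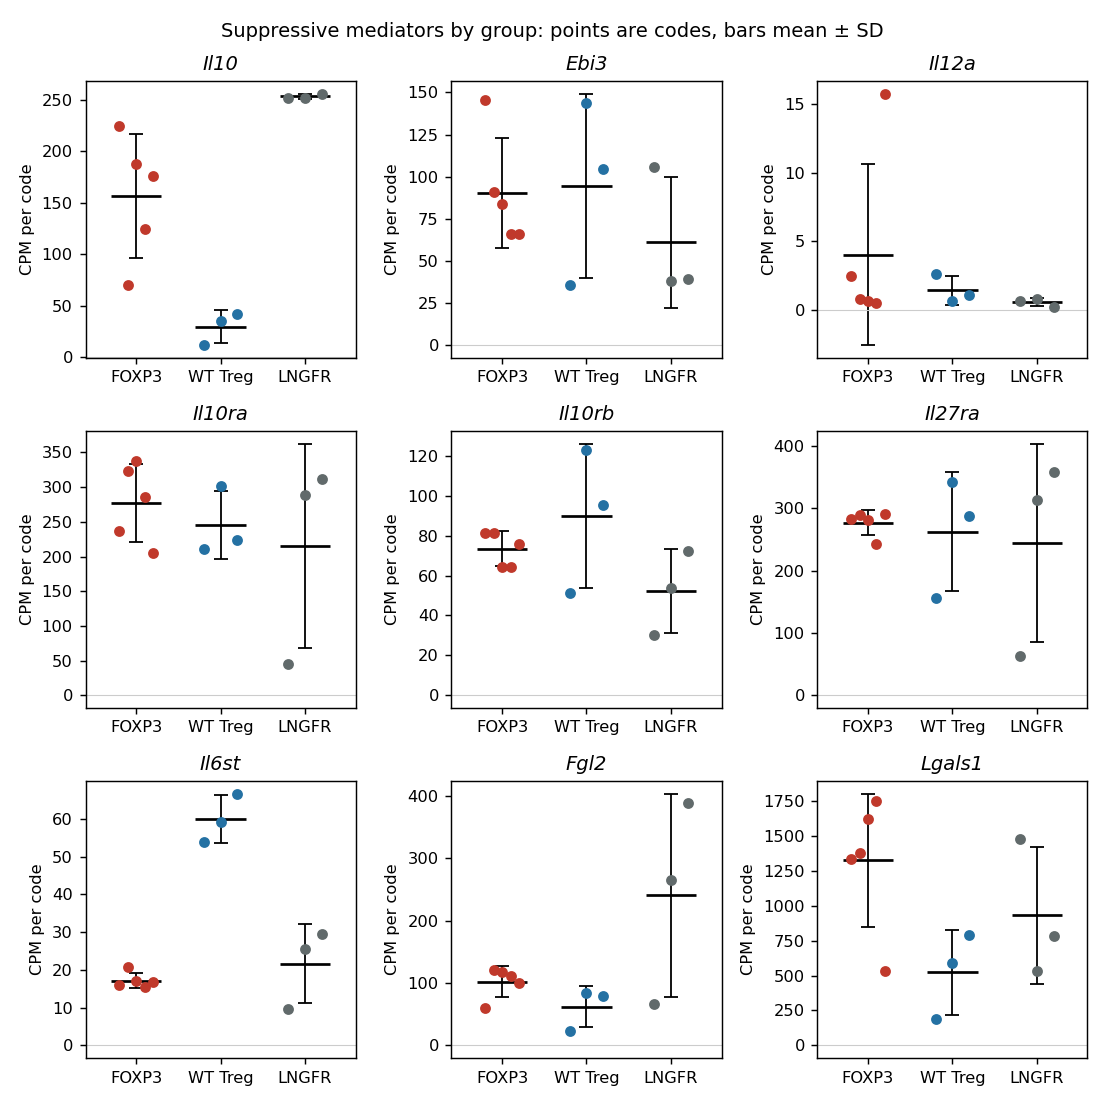
CPM of the 9 genes in each code (points) with mean and SD (bars) for the FOXP3 (n = 5), WT Treg (n = 3) and LNGFR (n = 3) groups, each panel on its own linear axis. Il6st in WT Treg (54.0 to 66.6 CPM) and Il10 in WT Treg (11.8 to 42.0 CPM) lie apart from both vector groups, and most other genes overlap between groups.

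Across the 3 comparisons 1 gene passed the test: Il6st was lower in FOXP3 cells than in WT Treg. Between FOXP3 and LNGFR cells, 0 of the 8 genes other than Il12a had an edgeR adjusted p under 0.05, where 0.543% of all tested genes did. At an unadjusted p under 0.05 there was 1 (Fgl2), at a share of 10.3% over all tested genes, and DESeq2 called 0, where it called 2.15% of all genes it gave an adjusted p. Between WT Treg and LNGFR cells, 0 of the 7 genes other than Il10 and Il12a passed, against 1.3% of all tested genes. There were 3 at an unadjusted p under 0.05 (Il10rb, Il6st and Fgl2), against 14.8% of all tested genes, and 2 called by DESeq2 (Il6st and Fgl2), against 5.26%. Between FOXP3 cells and WT Treg, 1 of these 7 passed, against 0.259% of all tested genes. There were 2 at an unadjusted p under 0.05 (Il6st and Lgals1), against 16.5%, and DESeq2 called the same 2, against 15.2% of all genes it gave an adjusted p.

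The codes of FOXP3 and LNGFR did not overlap for 1 of the 8 genes (Il10), where that held for 9.02% of all tested genes. For Il6st alone of the 7, the codes of WT Treg did not overlap with LNGFR or with FOXP3, where 16.6% and 12.4% of all tested genes had no such overlap. The median log2 fold change of the 8 genes was 0.27 in FOXP3 against LNGFR, with all tested genes at -0.02. The median of the 7 was 0.19 in WT Treg against LNGFR and 0.07 in FOXP3 against WT Treg, with all tested genes at 0.08 and 0.01. The comparisons share groups, so their values are not independent.

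Without codes E2, G1 and N3 more genes passed, here and over the whole table. FOXP3 against LNGFR then gave 4 of the 8 genes still tested, with Ebi3 and Lgals1 higher and Fgl2 and Il6st lower in FOXP3 cells, where 10.7% of all tested genes passed. WT Treg against LNGFR gave 4 of 7 (Ebi3, Il10rb and Il6st higher, Fgl2 lower in WT Treg) at 7.66% of all tested genes, and FOXP3 against WT Treg gave 3 of 7 (Lgals1 higher, Il10rb and Il6st lower in FOXP3 cells) at 7.42%. Il12a is absent from these counts, since it no longer passed the filter on low counts.

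**Figure D2:**
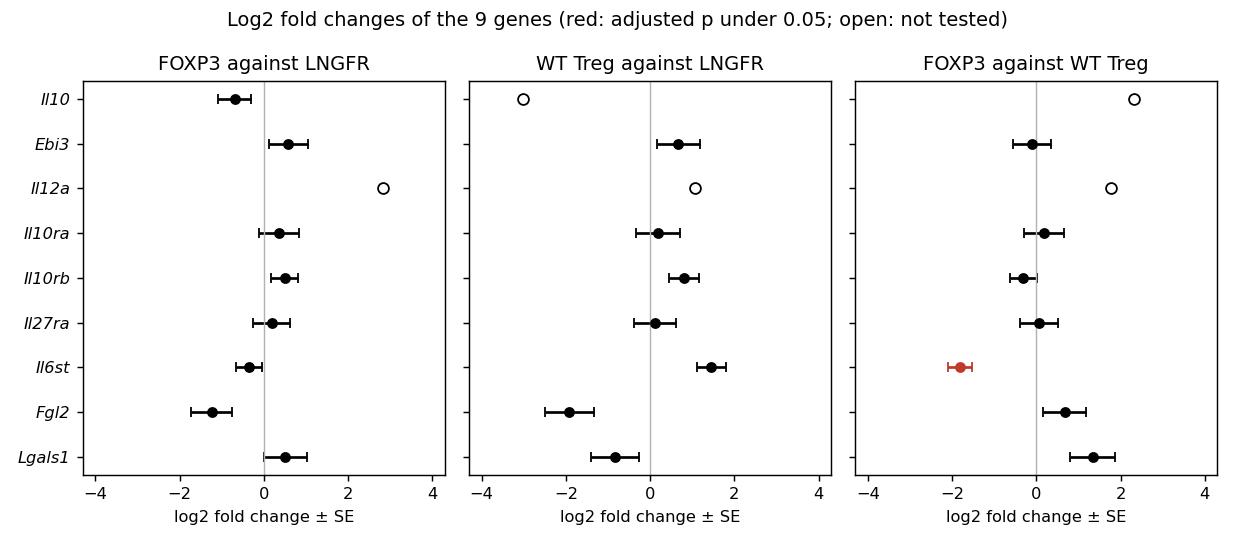
Log2 fold change with SE from edgeR for the 9 genes (rows) in the 3 comparisons (panels), where positive values mean higher in the group named first. Only Il6st in FOXP3 against WT Treg (red, -1.81) passed, and the open circles are the contrasts of Il10 and Il12a given without a test.

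Il10 (ENSMUSG00000016529.5, GRCm38 chr1:131019845-131024974, plus strand) was high in both vector groups. It stood at 224.5, 70.0, 187.5, 124 and 176 CPM in F1, F2, F5, N2 and N3 of the FOXP3 group, at 11.8, 35.4 and 42.0 CPM in E2, G4 and L1 of WT Treg, and at 251.5, 252.4 and 256.2 CPM in G1, G2 and G3 of LNGFR. All FOXP3 codes lay below all LNGFR codes, and every WT Treg code lay below every vector code. The mean was 156.5 ± 60.2 CPM in FOXP3 cells (SD, n = 5), 29.7 ± 15.8 CPM in WT Treg (n = 3) and 253 ± 2.47 CPM in LNGFR cells (n = 3).

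The log2 fold change of Il10 was -0.70 ± 0.39 (SE) in FOXP3 against LNGFR, and edgeR gave an adjusted p of 0.596, with 0.245 to 0.735 under the alternatives other than single codes left out and 0.517 to 0.847 with single codes left out. As a description, the fold change was 2.33 on the log2 scale in FOXP3 against WT Treg and -3.02 in WT Treg against LNGFR. The E2 value rests on 9 counts (4 and 5 in its 2 libraries), and the 3 WT Treg codes together held 543 counts, against 7218 in FOXP3 and 4462 in LNGFR codes. In a sorted population, fewer Il10-expressing cells and less Il10 RNA per cell cannot be told apart, for this or any other gene here.

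The small SD of Il10 over the LNGFR codes does not carry over to their libraries. CPM per library were scaled with TMM factors of their own. Part of the difference between library and code values may come from this scaling. G1 had 341 CPM in the first and 35.9 CPM in the second, weak library (15 counts), G2 had 296 and 189 CPM, and G3 had 280 and 240 CPM. The FOXP3 libraries ran from 67.6 CPM in F2 to 244.5 CPM in F1, so single libraries of the vector groups overlapped although their codes did not. WT Treg libraries ran from 10.1 to 44.1 CPM, and only the weak G1 library reached that range.

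**Figure D3:**
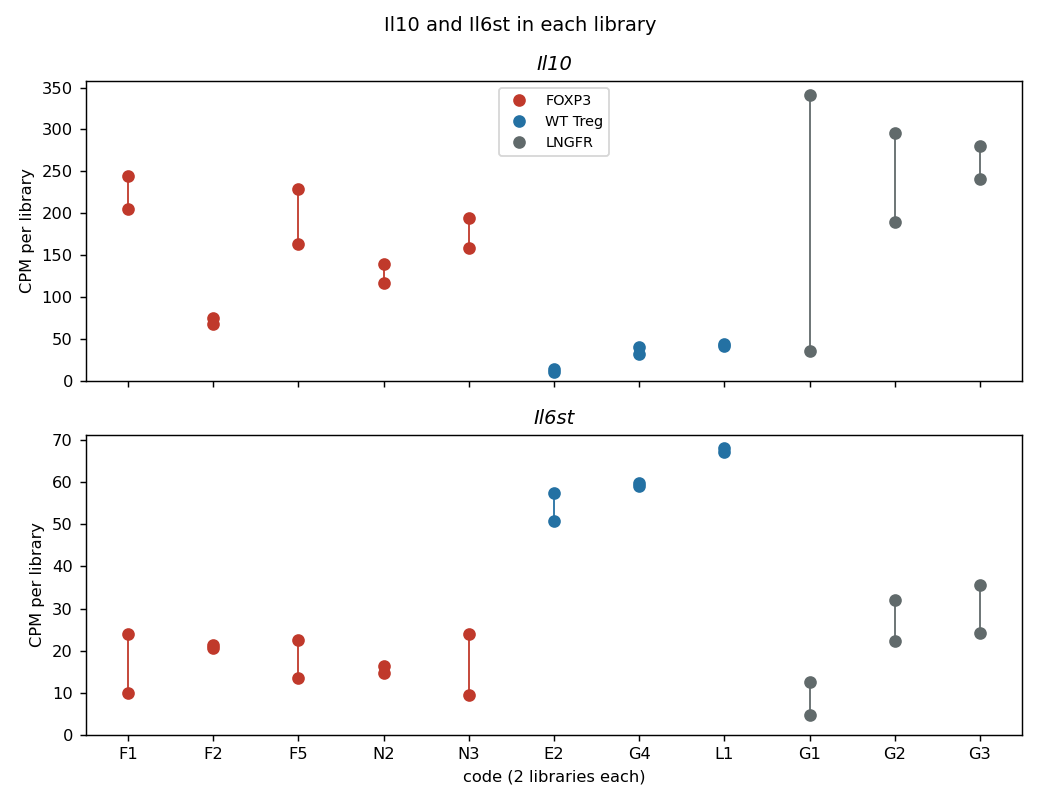
CPM of Il10 (above) and Il6st (below) in each library, with the 2 libraries of a code joined by a line, for FOXP3, WT Treg and LNGFR codes from left to right. The libraries of G1 lie at 341 and 35.9 CPM for Il10, and WT Treg libraries hold 50.7 to 68.1 CPM of Il6st, above all others.

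Ebi3 (ENSMUSG00000003206.7, chr17:55952640-55957022, plus strand), the chain shared by IL-35 and IL-27, was read in all 3 groups. FOXP3 codes F1, F2, F5, N2 and N3 held 145, 90.8, 83.6, 65.9 and 65.8 CPM, WT Treg codes E2, G4 and L1 held 35.5, 144 and 104.5 CPM, and LNGFR codes G1, G2 and G3 held 106, 38.1 and 39.1 CPM. All FOXP3 codes were above G2 and G3, F1 alone was above G1, and WT Treg spanned nearly the whole range. In G1 the first library held 314 counts and the second 0.

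The log2 fold change of Ebi3 was 0.58 ± 0.47 in FOXP3 against LNGFR (edgeR adjusted p = 0.709), 0.67 ± 0.51 in WT Treg against LNGFR (adjusted p = 0.557) and -0.10 ± 0.45 in FOXP3 against WT Treg (adjusted p = 0.941). Without E2, G1 and N3, it was 1.31 ± 0.29 in FOXP3 against LNGFR (adjusted p = 0.0187) and 1.69 ± 0.33 in WT Treg against LNGFR (adjusted p = 0.0122). With G1 alone left out, the FOXP3 against LNGFR value was 1.23, the upper end of the range over codes left out singly, and did not pass. Ebi3 overlaps the gene Gm16712 by 270 bases on the opposite strand, so without a stated strand setting their reads cannot be told apart there.

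Il12a (ENSMUSG00000027776.12, chr3:68690644-68698547, plus strand), the p35 chain, was close to the detection limit outside code N3. FOXP3 codes F1, F2, F5, N2 and N3 held 21, 9, 6, 5 and 145 counts, WT Treg codes E2, G4 and L1 held 2, 4 and 8, and LNGFR codes G1, G2 and G3 held 2, 5 and 2. N3 gave 78.0% of the 186 counts of the FOXP3 group, and both of its libraries were high, with 77 and 68 counts. The mean of 4.05 ± 6.61 CPM in FOXP3 cells (n = 5), against 1.45 ± 1.05 CPM in WT Treg and 0.571 ± 0.294 CPM in LNGFR cells (n = 3 each), therefore describes 1 code.

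As a description without a test, the log2 fold change of Il12a was 2.84 in FOXP3 against LNGFR, 1.06 in WT Treg against LNGFR and 1.78 in FOXP3 against WT Treg. When N3 or F1 was left out, Il12a no longer passed the filter on low counts. In F1 the counts were uneven, with 20 in the first library and 1 in the second.

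In N3 the B-cell markers were high in both libraries as well, at 5304 and 5800 CPM summed, with 124 to 2280 CPM in all other libraries. Cd79a, a chain of the B-cell antigen receptor, stood at 994 CPM in N3, 560 CPM in G1 and 15.8 to 107 CPM in the other codes. G1, second in B-cell markers, had 1 count of Il12a in each library. The 10 dendritic-cell markers summed to 3740 CPM in N3 and 2581 CPM in G1. Nearly all of this was H2-Aa, a class II gene that B cells also express, at 3712 and 2544 CPM. Of the 10 markers, 3 were at 0 in N3 and 0 in G1. The part of these cell types in the Il12a counts was not tested. Lifr, a partner chain of gp130 that was chosen after its values were seen, had 641 and 613 CPM in the N3 libraries and 4.57 to 67.2 CPM in the others.

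The other chains with which EBI3 and p35 pair were barely read. Il27 had 4 counts over the FOXP3 codes, 2 over WT Treg and 3 over LNGFR, and Il12b had 2, 6 and 10 in the same order. Neither passed the filter on low counts. Of the IL-12 family list, 3 of 7 genes were tested (Il12rb1, Il12rb2 and Stat4), and 0 passed in any of the 3 comparisons, with 0 at an unadjusted p under 0.05. Il12rb1, the receptor chain common to IL-12 and IL-23, averaged 139 ± 30.6 CPM in FOXP3 cells, 102 ± 57.8 CPM in WT Treg and 120 ± 69.2 CPM in LNGFR cells.

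**Figure D4:**
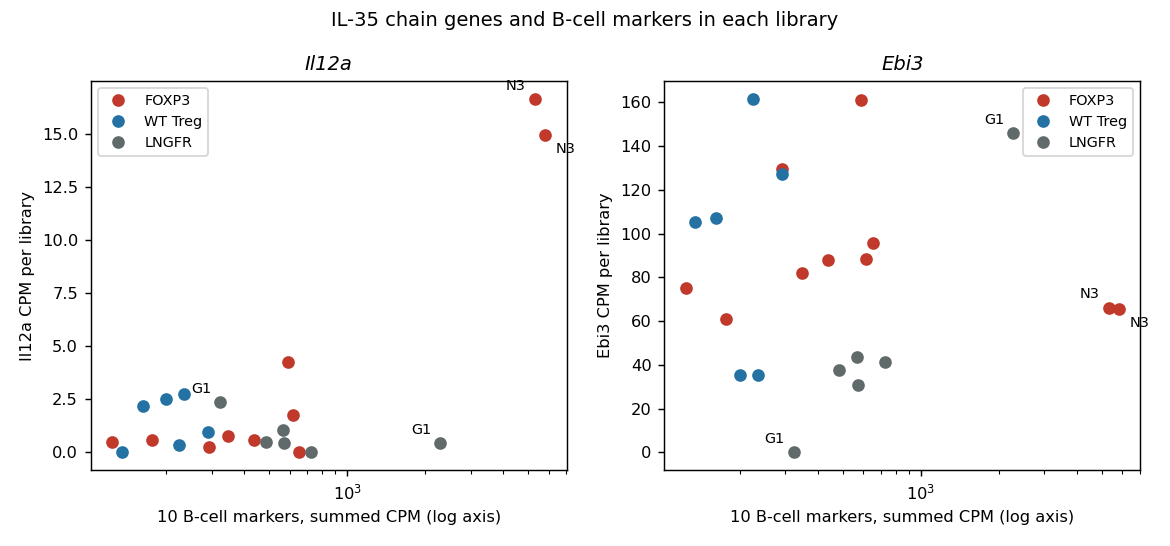
Il12a (left) and Ebi3 (right) CPM of each library against the summed CPM of 10 B-cell markers on a log axis, coloured by group, with the libraries of N3 and G1 labelled. Both N3 libraries (15.0 and 16.7 CPM of Il12a) stand apart, and Ebi3 in N3 (65.6 and 66.2 CPM) lies among the other libraries.

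The receptor chains Il10ra, Il10rb and Il27ra were read at similar ranges in the 3 groups, and G1 was the lowest code for each. Il10ra (ENSMUSG00000032089.16, chr9:45253837-45269149, minus strand) ran from 206 to 337.5 CPM in FOXP3 cells, 211 to 302 CPM in WT Treg and 45.06 to 311 CPM in LNGFR cells. G2 and G3, at 289 and 311 CPM, lay within the FOXP3 range, so the width of the LNGFR range is G1.

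The log2 fold change of Il10ra was 0.37 ± 0.47 in FOXP3 against LNGFR (edgeR adjusted p = 0.810), 0.19 ± 0.52 in WT Treg against LNGFR (adjusted p = 0.908) and 0.18 ± 0.47 in FOXP3 against WT Treg (adjusted p = 0.885). Without G1 the sign turned in the LNGFR contrasts, to -0.11 for FOXP3 and -0.30 for WT Treg. Without G4 it turned in WT Treg against LNGFR as well, to -0.16. None of these values passed.

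Il10rb (ENSMUSG00000022969.13, chr16:91406164-91425834, plus strand) stood at 81.5, 81.5, 64.1, 64.2 and 76.0 CPM in F1, F2, F5, N2 and N3, at 51.3, 123 and 95.2 CPM in E2, G4 and L1, and at 30.3, 53.8 and 72.4 CPM in G1, G2 and G3. WT Treg codes G4 and L1 were above all vector codes, and E2 was not. The log2 fold change was 0.49 ± 0.33 in FOXP3 against LNGFR (edgeR adjusted p = 0.661), 0.80 ± 0.36 in WT Treg against LNGFR (adjusted p = 0.326) and -0.31 ± 0.32 in FOXP3 against WT Treg (adjusted p = 0.669).

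Without E2, G1 and N3, Il10rb was at 0.79 ± 0.20 in WT Treg against LNGFR (adjusted p = 0.0284) and at -0.59 ± 0.16 in FOXP3 against WT Treg (adjusted p = 0.0487). The gene overlaps Gm21970 by 569 bases on the same strand, and reads there may have been split or dropped.

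Il27ra (ENSMUSG00000005465.9, chr8:84030294-84042589, minus strand) was the steadiest of the 9 genes over the FOXP3 codes, at 277 ± 19.7 CPM (n = 5). WT Treg held 157, 343 and 288 CPM in E2, G4 and L1, and LNGFR held 62.5, 313 and 358 CPM in G1, G2 and G3. The low codes were E2 and G1, the ones with weak libraries. In G1, however, the first library, which was not weak, was low as well. It held 73.1 CPM of Il27ra against 69.4 CPM in the weak second, and 54.0 against 43.05 CPM of Il10ra. The log2 fold change lay between 0.07 and 0.18 in the 3 comparisons, with edgeR adjusted p from 0.902 to 0.957, and its sign turned under several alternatives.

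Signalling genes below the IL-10 receptor showed no call. In the list of IL-10 family ligands and receptor signalling, 7 of 12 genes were tested and 0 passed in each comparison, with 0 at an unadjusted p under 0.05. Jak1 averaged 603 ± 129 CPM in FOXP3 cells, 463 ± 205 CPM in WT Treg and 514 ± 204 CPM in LNGFR cells. Tyk2 averaged 138 ± 21.8, 147 ± 35.1 and 103 ± 52.1 CPM in the same order. The ligands Il19, Il20, Il22 and Il24 and the decoy receptor Il22ra2 did not pass the filter on low counts.

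Il6st (ENSMUSG00000021756.12, chr13:112464070-112510086, plus strand) encodes gp130 and was, beside Il10, the gene whose WT Treg codes overlapped with neither vector group. FOXP3 codes F1, F2, F5, N2 and N3 held 16.0, 20.7, 16.9, 15.4 and 16.8 CPM, WT Treg codes E2, G4 and L1 held 54.0, 59.2 and 66.6 CPM, and LNGFR codes G1, G2 and G3 held 9.75, 25.6 and 29.6 CPM. Every WT Treg code was above every vector code. The same held for single libraries, at 50.7 to 68.1 CPM in WT Treg, 9.47 to 24.0 CPM in FOXP3 and 4.78 to 35.5 CPM in LNGFR.

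Il6st was 3.51-fold lower in FOXP3 cells than in WT Treg, a log2 fold change of -1.81 ± 0.29 (edgeR adjusted p = 0.0192), and all 5 FOXP3 codes were below all 3 WT Treg codes. The adjusted p was 6.91e-07 to 0.0152 under the alternatives other than single codes left out, all of which kept the call. With single codes left out it was 0.0225 to 0.0774, and the call was lost without F1 (0.0774), F5 (0.0691), N2 (0.0615) or L1 (0.0672), at log2 fold changes of -1.79, -1.82, -1.79 and -1.58.

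The 12 myeloid markers were also highest in WT Treg, at a low level. They summed to 11.8 to 22.7 CPM in FOXP3 codes, 31.1 to 72.3 CPM in WT Treg and 7.19 to 29.9 CPM in LNGFR. By code, the sum and Il6st were 63.2 and 54.0 CPM in E2, 31.1 and 59.2 CPM in G4, and 72.3 and 66.6 CPM in L1. For LNGFR they were 29.9 and 9.75 CPM in G1, 13.4 and 25.6 CPM in G2, and 7.19 and 29.6 CPM in G3. For FOXP3 they were 13.3 and 16.0 CPM in F1, 11.8 and 20.7 CPM in F2, and 15.4 and 16.9 CPM in F5. N2 had 22.7 and 15.4 CPM, and N3 had 22.2 and 16.8 CPM. In E2 (63.2 CPM summed), Adgre1 and Cd163 had 17 counts each. In each WT Treg code 1 to 4 of these markers were at 0, against 2 to 5 in FOXP3 and 0 to 4 in LNGFR codes. Lyz2, the lysozyme of macrophages and granulocytes, stood at 13.8 and 55.4 CPM in G4 and L1 and had 0 counts in E2, and Cd14 had 0 counts in E2 and G4. Their part in the Il6st level was not tested.

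In WT Treg against LNGFR, Il6st was at 1.46 ± 0.34 and did not pass (edgeR adjusted p = 0.0594). It passed with RLE size factors (0.0355), with DESeq2 (0.00141), without the 3 weak libraries (0.0380) and without G1 (0.0374), and not with only these groups in the fit (0.221). FOXP3 against LNGFR gave -0.36 ± 0.30 (adjusted p = 0.717). Without E2, G1 and N3 it was -0.68 ± 0.17 (adjusted p = 0.0250), with the 4 FOXP3 codes at 15.4 to 20.7 CPM and the 2 LNGFR codes at 25.6 and 29.6 CPM.

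The promoter of Il6st is shown because it is the gene that passed the test. The sequence is from RefSeq on GRCm38.p6 (chr13:112463820-112464119, plus strand) and runs from 250 bases before the start of the gene to 50 bases after it.
Il6st: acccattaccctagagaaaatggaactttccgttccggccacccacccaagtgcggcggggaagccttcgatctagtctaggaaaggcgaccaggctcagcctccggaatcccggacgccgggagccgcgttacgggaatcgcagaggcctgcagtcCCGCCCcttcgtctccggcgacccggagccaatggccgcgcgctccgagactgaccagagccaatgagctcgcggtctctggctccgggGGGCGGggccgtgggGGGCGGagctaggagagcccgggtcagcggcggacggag
Capitals mark matches to the GC box GGGCGG on either strand. It matched 3 times, at positions -93 to -88 (opposite strand), -4 to 1 and 11 to 16, counted from 0 at the start, and 68.3% of the bases are G or C. Of 32841 RefSeq promoters of this length, 35.7% hold a GC box. Searches of both strands for AP-1 (TGANTCA), STAT (TTCNNNGAA) and forkhead (GTAAACA) letters found no match in this window. A match is a run of letters and no measurement of binding.

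Other genes that share gp130 gave no call. Of 9 such ligands and receptors, 7 were tested and 0 passed in each comparison, with 0, 1 and 4 at an unadjusted p under 0.05 in FOXP3 against LNGFR, WT Treg against LNGFR and FOXP3 against WT Treg, where 10.3%, 14.8% and 16.5% of all tested genes were. Osm, the cytokine oncostatin M, averaged 64.7 ± 16.4 CPM in FOXP3 cells, 30.1 ± 10.5 CPM in WT Treg and 44.6 ± 24.8 CPM in LNGFR cells. Osmr, its receptor chain, was high in 1 code, at 54.0, 1.13 and 1.20 CPM in E2, G4 and L1 of WT Treg, and averaged 0.771 ± 0.527 CPM in FOXP3 and 0.990 ± 1.47 CPM in LNGFR cells.

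Fgl2 (ENSMUSG00000039899.5, chr5:21372642-21378374, plus strand) was highest in 2 of the LNGFR codes. It stood at 60.0, 120, 117, 111.5 and 100 CPM in F1, F2, F5, N2 and N3, at 23.7, 83.3 and 79.5 CPM in E2, G4 and L1, and at 66.6, 266 and 389 CPM in G1, G2 and G3. G2 and G3 were above every other code, and G1 lay below 4 of the 5 FOXP3 codes. The 2 libraries of G2 held 259 and 287 CPM and those of G3 340 and 446 CPM, so the difference from G1 was larger than that between libraries.

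For Fgl2 the log2 fold change was -1.24 ± 0.48 in FOXP3 against LNGFR (edgeR adjusted p = 0.373), -1.92 ± 0.58 in WT Treg against LNGFR (adjusted p = 0.160) and 0.68 ± 0.51 in FOXP3 against WT Treg (adjusted p = 0.554). Without E2, G1 and N3, both LNGFR contrasts passed, at -1.68 ± 0.25 for FOXP3 (adjusted p = 0.00289) and -2.01 ± 0.31 for WT Treg (adjusted p = 0.00471). With G1 alone left out, WT Treg against LNGFR passed (-2.35, adjusted p = 0.0273) and FOXP3 against LNGFR did not (-1.68, adjusted p = 0.114).

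The Fgl2 promoter (RefSeq, GRCm38.p6, chr5:21372423-21372722, plus strand) is shown because, of the 4 genes of the set with an entry, it alone held AP-1 and STAT letters.
Fgl2: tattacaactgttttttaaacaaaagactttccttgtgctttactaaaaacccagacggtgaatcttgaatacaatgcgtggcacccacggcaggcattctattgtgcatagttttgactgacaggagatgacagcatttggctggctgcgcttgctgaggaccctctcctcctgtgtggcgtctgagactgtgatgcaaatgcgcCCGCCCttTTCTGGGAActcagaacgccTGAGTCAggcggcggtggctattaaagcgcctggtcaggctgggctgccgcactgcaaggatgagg
Capitals mark a GC box on the opposite strand at positions -44 to -39, STAT letters (TTCTGGGAA) at -36 to -28 and AP-1 letters (TGAGTCA) at -16 to -10, which do not overlap. Positions are counted from the RefSeq start, which lies downstream of the gene start given above. By that gene start, the AP-1 letters and part of the STAT letters fall inside the gene. AP-1 letters are found in 7.81%, STAT letters in 8.30% and forkhead letters in 3.65% of the 32841 promoters. Il12a has 2 entries, with 1 GC box in the second and no match in the first, and Ebi3 has no match. Il10, Il10ra, Il10rb, Il27ra and Lgals1 are named only.

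Lgals1 (ENSMUSG00000068220.6, chr15:78926725-78930465, plus strand) was the most abundant of the 9 genes. FOXP3 codes F1, F2, F5, N2 and N3 held 1339, 1381, 1625, 1754 and 531 CPM, WT Treg codes E2, G4 and L1 held 187, 592 and 789 CPM, and LNGFR codes G1, G2 and G3 held 1481, 530 and 784 CPM. FOXP3 codes other than N3 were above all WT Treg codes, while N3 lay within the WT Treg range and at the level of G2. In G1 the first library held 2029 CPM and the weak second 108 CPM.

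In edgeR, Lgals1 had a log2 fold change of 0.51 ± 0.51 in FOXP3 against LNGFR (edgeR adjusted p = 0.754), -0.83 ± 0.56 in WT Treg against LNGFR (adjusted p = 0.499) and 1.34 ± 0.53 in FOXP3 against WT Treg (adjusted p = 0.214). DESeq2 called the last of these (adjusted p = 0.0466). Without E2, G1 and N3, Lgals1 was higher in FOXP3 cells than in LNGFR cells, at 1.21 ± 0.18 (adjusted p = 0.00175), and than in WT Treg, at 1.13 ± 0.18 (adjusted p = 0.00400), while WT Treg against LNGFR was 0.08 ± 0.20 (adjusted p = 0.884).

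Among 7 galectins and their ligands, all tested, 1 passed, in WT Treg against LNGFR, where 1.3% of all tested genes did. At an unadjusted p under 0.05 there were 2 in each comparison. The shares of all tested genes were 10.3% in FOXP3 against LNGFR, 14.8% in WT Treg against LNGFR and 16.5% in FOXP3 against WT Treg. Lgals3, which encodes galectin-3, fell by 3.01 ± 0.61 on the log2 scale in WT Treg against LNGFR (edgeR adjusted p = 0.0279), at 23.7, 28.3 and 74.2 CPM in E2, G4 and L1, and 530, 203 and 312 CPM in G1, G2 and G3. This call was lost with any 1 of the 6 codes left out (adjusted p 0.0520 to 0.112), with only these groups in the fit (0.0797), without the weak libraries (0.0600) and without E2, G1 and N3 (0.0613). In FOXP3 codes F1, F2, F5, N2 and N3 Lgals3 stood at 210, 251, 436, 384.5 and 100.5 CPM, and FOXP3 against WT Treg gave 2.68 ± 0.57 (adjusted p = 0.0714), which passed with DESeq2 (0.000108), without a filter (3.66e-05), without N3 (0.0364) or G4 (0.0418), and without E2, G1 and N3 (0.0329). Spn, which encodes CD43, a glycoprotein that galectin-1 binds, averaged 314.5 ± 100 CPM in FOXP3 cells, 158 ± 65.2 CPM in WT Treg and 266 ± 59.1 CPM in LNGFR cells and was not called.

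Other suppressive mediators of Treg moved in both directions. Of 12 listed genes, all tested, 0 rose and 1 fell in FOXP3 against LNGFR, where 0.543% of all tested genes passed. In WT Treg against LNGFR 2 rose and 2 fell (1.3% of all tested genes), and in FOXP3 against WT Treg 0 rose and 1 fell (0.259%). At an unadjusted p under 0.05 there were 6, 5 and 6 in the same order, against 10.3%, 14.8% and 16.5% of all tested genes. Lrrc32, which encodes GARP, the anchor of latent TGF-β, rose by 3.45 ± 0.50 on the log2 scale in WT Treg against LNGFR (adjusted p = 0.00410 from edgeR), with 122 ± 52.4 CPM in FOXP3 cells, 346 ± 129 CPM in WT Treg and 31.6 ± 13.4 CPM in LNGFR cells. That call was lost without G2 (adjusted p = 0.0649) or L1 (adjusted p = 0.0533).

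Itgb8, the integrin chain that activates latent TGF-β, rose by 3.34 ± 0.39 in WT Treg against LNGFR (adjusted p = 0.000797 from edgeR), and this call held with each of the 6 codes left out. It fell by 1.75 ± 0.30 in FOXP3 against WT Treg (adjusted p = 0.0275), a call lost without F1, F5, N2, E2 or L1 (adjusted p 0.0557 to 0.0905) and without the weak libraries (0.0532). Its level was 13.3 ± 4.91 CPM in FOXP3 cells, 45.3 ± 8.67 CPM in WT Treg and 4.46 ± 1.13 CPM in LNGFR cells. Its codes did not overlap between any of the groups. Of all tested genes, 9.02% had no overlap in FOXP3 against LNGFR, 16.6% in WT Treg against LNGFR and 12.4% in FOXP3 against WT Treg. FOXP3 against LNGFR did not pass for Itgb8 (1.59 ± 0.34, adjusted p = 0.0624) or Lrrc32 (1.94 ± 0.44, adjusted p = 0.0784) in edgeR. Both passed with DESeq2 (adjusted p = 0.00598 for Itgb8 and 0.000324 for Lrrc32), without a filter (0.0168 and 0.0147), without the weak libraries (0.0330 and 0.0335), without N3 (0.0273 and 0.0346) and without E2, G1 and N3 (0.00530 and 0.0118), and Lrrc32 also with only these groups in the fit (0.0482).

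Areg, the growth factor amphiregulin, fell by 2.00 ± 0.40 in FOXP3 against LNGFR (edgeR adjusted p = 0.0442) and by 2.18 ± 0.48 in WT Treg against LNGFR (adjusted p = 0.0446). Its level was 42.5 ± 20.3 CPM in FOXP3 cells, 37.2 ± 12.0 CPM in WT Treg and 171 ± 67.9 CPM in LNGFR cells. The FOXP3 call was lost without F1, F2, F5, G1, G2 or G3 (adjusted p 0.0964 to 0.224), and the WT Treg call without any 1 of its 6 codes (adjusted p 0.0930 to 0.143). Neither passed without E2, G1 and N3 (adjusted p = 0.0948 for FOXP3 and 0.184 for WT Treg), nor did the WT Treg value with only these groups in the fit (0.106) or without the weak libraries (0.0868). Lag3, an inhibitory receptor, fell by 2.24 ± 0.39 in WT Treg against LNGFR (adjusted p = 0.0118), and not without G2, G3, G4 or L1 (adjusted p 0.0823 to 0.164) or with only these groups in the fit (0.0797). FOXP3 against LNGFR did not pass for Lag3 (adjusted p = 0.428), except without E2, G1 and N3 (0.000701).

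Genes known to act on Il10 in T cells were all read, and 0 of 10 passed in each comparison, with 1, 2 and 1 at an unadjusted p under 0.05 in FOXP3 against LNGFR, WT Treg against LNGFR and FOXP3 against WT Treg, to be read against the same shares of all tested genes. Maf, which encodes the activator c-Maf, averaged 305 ± 62.0 CPM in FOXP3 cells, 144 ± 28.8 CPM in WT Treg and 253 ± 28.8 CPM in LNGFR cells. FOXP3 against WT Treg gave 1.08 ± 0.28 on the log2 scale for Maf (edgeR adjusted p = 0.0901, 9.33e-05 to 0.206 under the alternatives). Bhlhe40, a repressor of Il10 in T helper cells, averaged 127 ± 74.3 CPM in FOXP3 cells, 69.9 ± 35.8 CPM in WT Treg and 311 ± 166 CPM in LNGFR cells, with edgeR adjusted p from 0.156 to 0.495. In WT Treg against LNGFR, the edgeR and DESeq2 alternatives gave adjusted p of 0.00395 to 0.309 for Bhlhe40 and 0.0120 to 0.601 for Maf. Neither passed there with single codes left out.

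The genes with a profile most like that of Il10 were taken from 8856 tested genes with a mean of at least 10 CPM, by the root mean square difference of centred log2(CPM + 1) over the 11 codes. They were Ctla2a (0.55), Epas1 (0.59), Smtn (0.63), Lag3 (0.63) and F2rl2 (0.63), where the median gene had 1.41 and the SD of Il10 itself over the codes was 1.45. Ctla2a, which encodes a protease inhibitor, averaged 131 ± 41.5 CPM in FOXP3 cells, 31.2 ± 10.97 CPM in WT Treg and 306 ± 141 CPM in LNGFR cells. Epas1, which encodes the hypoxia factor HIF-2α, averaged 118 ± 20.1 CPM in FOXP3 cells, 39.3 ± 30.9 CPM in WT Treg and 263 ± 157 CPM in LNGFR cells. Being selected on likeness to Il10, these genes get no test for it, although Lag3 was tested above as one of the suppressive mediators, and the codes share their libraries and depth.

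Il10 lies 7.04 Mb from Ptprc, the gene of CD45 that carries the CD45.1 allele in WT Treg. Of 17 genes that start within 250 kb of Il10, 7 were tested (Fcmr, Mapkapk2, Gm37084, Dyrk3, Eif2d, Rassf5 and Gm28913), and 0 passed edgeR's test in any comparison. At an unadjusted p under 0.05 there was 1, Fcmr in FOXP3 against WT Treg (p = 0.0422), where 16.5% of all tested genes were. Fcmr is also among the B-cell markers and stood at 272 CPM in N3. Mapkapk2, a kinase downstream of p38, averaged 42.1 ± 9.69 CPM in FOXP3 cells, 40.8 ± 5.75 CPM in WT Treg and 37.8 ± 5.92 CPM in LNGFR cells.

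Levels can be compared between genes only per length of transcript. Per kb of merged exon, Lgals1 was first in every group, with medians of 1530 CPM per kb in FOXP3 cells, 655 in WT Treg and 868 in LNGFR cells, and its lowest code was above the highest code of any other of the 9 genes in each group. Il10 came second in FOXP3 cells (134 CPM per kb) and in LNGFR cells (193), and at rank 5 in WT Treg (27.0), where its range overlapped that of Ebi3, Il10rb and Fgl2. In FOXP3 cells the next ranks, Il10ra (81.6 CPM per kb), Il27ra (81.0) and Ebi3 (72.4), overlapped with each other and with Il10. In LNGFR cells the Il10 codes were above all codes of Il27ra (89.5 CPM per kb), Il10ra (82.5), Fgl2 (70.1) and Ebi3 (33.9).

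Il6st and Il12a were last in every group. Il6st had a median of 1.51 CPM per kb in FOXP3 cells, 5.33 in WT Treg and 2.31 in LNGFR cells over 11099 bases of merged exon. Il12a had 0.493, 0.626 and 0.395 CPM per kb in the same order. Only in FOXP3 cells did the range of Il12a reach that of Il6st, through N3 at 9.28 CPM per kb. Ebi3 had 72.4, 90.6 and 33.9 CPM per kb, so the chains of IL-35 were read at unlike levels per length in all 3 groups.

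**Figure D5:**
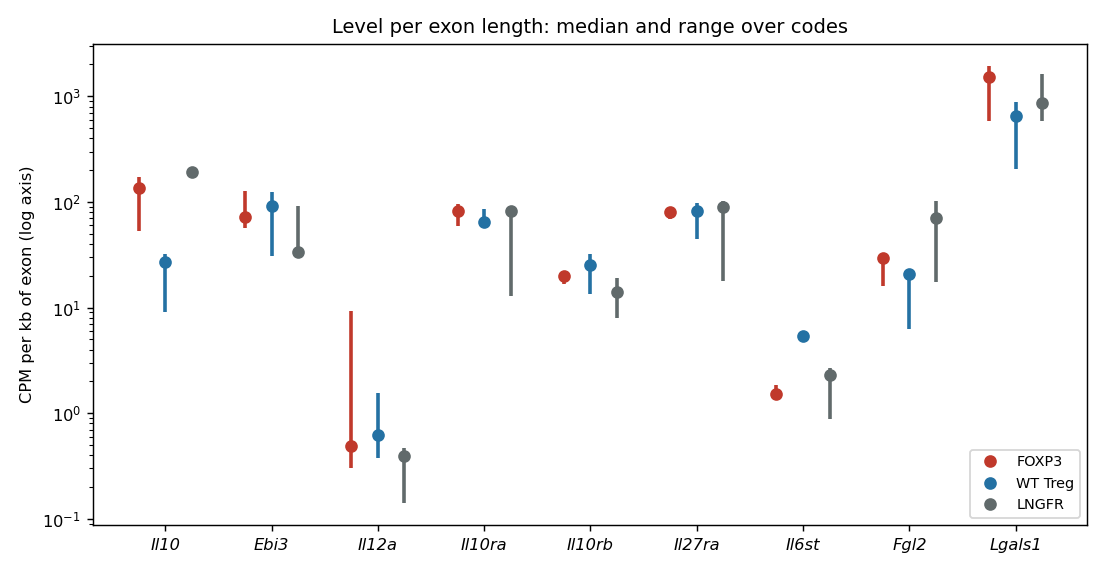
Median (point) and range over codes (line) of CPM per kb of merged exon on a log axis, for the 9 genes in FOXP3, WT Treg and LNGFR cells from left to right within each gene. Lgals1 is highest in each group (1530, 655 and 868 CPM per kb), and Il6st and Il12a are lowest.

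The spread within codes differed by gene, with libraries and codes each scaled by TMM factors of their own. On the log2(CPM + 1) scale, the SD between the 2 libraries of a code was 0.12 for Il27ra and 0.19 for Il10ra, against 0.76 and 0.82 between codes of a group. For Ebi3 it was 1.54 with all codes and 0.18 without E2 and G1, against 0.74 between codes of a group. Il6st had 0.50 between libraries and 0.43 between codes.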

How the data were processed

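RNA of 22 libraries was measured by Smart-seq with 38 bp paired reads after 18 cycles of PCR, without molecular identifiers. The authors deposited raw counts of reads for each gene symbol, with 1 column per library and no normalization. Per the submitters' processing notes, the build was mm10 (GRCm38) and the tools STAR 2.7.3a, featureCounts and Subread 2.0.0. Not given in the sources used here are the annotation, the strand setting and the treatment of reads with several positions.

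Counts of the 2 libraries of a code were summed. CPM per code used TMM factors of the summed codes, and CPM per library used factors calculated over the single libraries. All 15462 genes left by filterByExpr were fitted together over the 3 groups with edgeR 4.0.16 (quasi-likelihood test, robust, TMM) in R 4.3.3, with Benjamini-Hochberg adjustment and a threshold of 0.05. SEs were approximated as the absolute log2 fold change over the square root of F, and the common biological coefficient of variation was 0.491. DESeq2 1.42.0 was an alternative, with RLE size factors, no filter, fits of 2 groups, and codes or weak libraries left out. The fit was tested on simulated data. Positions and exon lengths are from GENCODE M21, and promoters from RefSeq (GRCm38.p6).

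The members and lists were chosen with earlier results of these data known. Named genes were the 9 members, each list's called genes and up to 2 with the smallest p per comparison, the 5 genes most like Il10, and the tested genes within 250 kb of it. Of these, the text gives values for the ones it describes. The alternatives for Areg, Lrrc32, Itgb8, Lag3, Lgals3, Maf and Bhlhe40 were added after seeing the data.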

Additional observations from a re-analysis of the deposited data

Results flagged for a closer look

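In groups of 5 codes, a code was examined more closely when its gap to the nearest other code exceeded 0.71 of the group's range (Dixon's limit for 5 values), which chance alone gives in about 5% of groups. Over the members and named genes, 9 of 45 FOXP3 groups had such a code, and several share a code, so they are not independent. For N3 these were Il12a at 15.8 CPM, Spn at 141 CPM, Fcmr at 272 CPM, Eif2d at 61.4 CPM and Rassf5 at 471 CPM. For F1 they were Tyk2 at 100.2 CPM, Jak1 at 379 CPM and Gm28913 at 1.29 CPM. For N2 it was Il27ra at 242.5 CPM. N3 was high for Il12a and Fcmr and low for Spn, Eif2d and Rassf5. F1 was low for Tyk2 and Jak1 and high for Gm28913, and N2 was low for Il27ra. The B-cell markers of N3 stand beside Il12a in the report, and their part in these values was not tested.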

How the results depend on the processing

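No paired analysis was possible because the groups share no replicate codes in the labels. The number of genes called over the whole table changed with the settings. FOXP3 against LNGFR gave 84 calls, and 357 with DESeq2, 329 without a filter, 184 with only these groups fitted, 250 with the 3 weak libraries left out, 1565 without E2, G1 and N3, and 14 to 273 with single codes left out. WT Treg against LNGFR gave 201, and 874, 1000, 58, 318, 1125 and 37 to 299 in the same order. FOXP3 against WT Treg gave 40, and 3220, 3615, 135, 66, 1090 and 4 to 1230, with 63 for RLE size factors. The cause was not tested. Without a filter, the median log2 fold change of the genes in both fits moved by 0.15 in FOXP3 against LNGFR and 0.19 in FOXP3 against WT Treg.

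Of the members, FOXP3 against LNGFR called 4 without E2, G1 and N3, and 0 with any single code left out. WT Treg against LNGFR called 1 with RLE size factors, 2 with DESeq2, 1 without a filter, 1 when the weak libraries were left out, 4 without E2, G1 and N3, and 0 to 2 with single codes left out. FOXP3 against WT Treg called 2 with DESeq2, 3 without E2, G1 and N3, and 0 to 1 with single codes left out.

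Among log2 fold changes of single genes, 10 turned sign under an alternative other than leaving out 1 code. Without E2, G1 and N3, Il10ra was -0.026 in FOXP3 against LNGFR and -0.19 in WT Treg against LNGFR. Il27ra was -0.297, -0.0866 and -0.21 in FOXP3 against LNGFR, WT Treg against LNGFR and FOXP3 against WT Treg, Lgals1 was 0.077 in WT Treg against LNGFR, and Lgals3 was 0.31 in FOXP3 against LNGFR. Without a filter, Il27ra was -0.0217 in WT Treg against LNGFR and Ebi3 0.044 in FOXP3 against WT Treg, and relative to the shifts of the median there (-0.07 and 0.19) neither turned. Without the weak libraries, Il27ra was -0.19 in FOXP3 against WT Treg. With single codes left out, FOXP3 against LNGFR ran from -0.11 to 0.77 for Il10ra, -0.27 to 0.60 for Il27ra and -0.57 to 0.10 for Lgals3. WT Treg against LNGFR ran from -0.30 to 0.52 for Il10ra and -0.36 to 0.48 for Il27ra. FOXP3 against WT Treg ran from -0.57 to 0.13 for Il10rb, -0.46 to 0.45 for Ebi3, -0.19 to 0.46 for Il27ra and -0.11 to 0.64 for Areg. Il10 kept its sign in FOXP3 against LNGFR in every fit run. In its contrasts with WT Treg the sign did not turn either, but the set was selected on that difference. The sign there is therefore no test of stability. Depth limits Il12a, with 5 to 21 counts in FOXP3 codes other than N3, and Il10 in E2, with 9 counts.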
